A study of Arabidopsis thaliana with 18 samples.

Results

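The subject is the response of wild-type Arabidopsis thaliana seedlings to 4 h of renewed phosphate. Whole seedlings of the accession Col-0 that had grown on medium lacking inorganic phosphate (Pi) and were then placed on complete medium (WT resupplied, 3 arrays) were set against Col-0 seedlings kept without Pi (WT without Pi, 3 arrays). These 6 arrays, chosen by their labels, are part of a series of 18 Affymetrix expression arrays, and all 22746 probe sets other than controls entered the comparison. Col-0 seedlings that were never starved (WT complete, 3 arrays) and seedlings of the spx1 spx2 double mutant, resupplied or kept without Pi (3 arrays each), serve for comparison. The labels give all seedlings an age of 7 days and call the arrays of a group biological replicates. They describe no seedlings moved to fresh medium without Pi. The move itself, the time of day and the other nutrients of the fresh medium therefore cannot be told apart from Pi. In whole seedlings, fewer cells of a type and less RNA per cell cannot be told apart either.

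Plants that run short of Pi switch on transporters, phosphatases and lipid-remodelling enzymes, largely through the transcription factor PHR1. When Pi is ample, SPX proteins such as SPX1 and SPX2 bind PHR1 and keep it from its targets. Making ribosomes takes much of the Pi that a growing cell binds into RNA, and anthocyanin pigments are a known mark of Pi-starved leaves. SPX1, SPX2, PHR1 and most of the classical starvation genes are not named by the tables used here, so the starvation genes below are those that are named.

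Some control measurements also moved with resupply. The 12 probe sets for polyadenylated RNA spiked in before labelling averaged 6.53 to 6.79 (log2 signal) on the WT resupplied arrays, against 7.36 to 7.46 on the WT without Pi arrays. The mean difference was -0.71. The control for large-subunit ribosomal RNA read 9.59 to 10.25 on the WT resupplied arrays, against 10.88 to 11.23 on the WT without Pi arrays. The difference between the 3 prime and 5 prime ubiquitin controls, a measure of RNA integrity, was 1.1 to 1.2 in WT resupplied, against 1.02 to 1.04 in WT without Pi. The same measure for the GAPDH controls overlapped, at -0.13 to 0.04 in WT resupplied and -0.23 to -0.09 in WT without Pi. Hybridisation controls overlapped too, at 8.96 to 9.05 and 8.95 to 9.39. Of the falls called below, 2748 were smaller than the spike-in difference and 1578 were at least as large. The part of these shifts in the results was not tested. Green tissue and root hairs were both present, by the light-harvesting genes LHCB4.1 and LHCB4.2 and the expansin genes EXPA7 and EXPA18. LHCB4.1 and LHCB4.2 both fell, by 0.47 and 1.14 on the log2 scale. EXPA18 rose by 0.71, a call that was lost without WT without Pi replicate 2 (0.54), and EXPA7 changed by 0.46 (limma adjusted p = 0.0871), a change that passed without WT without Pi replicate 3 (0.68).

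Resupply for 4 h moved transcripts in both directions in similar numbers, while the strongest changes were mostly falls. At an adjusted p of 0.05, 8517 of the 22746 probe sets differed (37.4%), 4191 higher (18.4%) and 4326 lower (19.0%) in WT resupplied than in WT without Pi. The median change over all probe sets was -0.05 on the log2 scale. At least 2-fold changes were found for 1917 probe sets (8.43%), 1105 up and 812 down. All of these 1917 had WT resupplied arrays that did not overlap the WT without Pi arrays, a separation seen in 58.0% of all probe sets. At 8-fold or more there were 21 rises and 56 falls. The lower group of 50 of the 1105 rises and 43 of the 812 falls lay under 4.397, the smallest lower quartile of any array and here called the dim range. Close to background RMA flattens differences, and such a change is at least as large as printed. The largest rise and fall without a single named gene were 4.08 and -4.98.

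**Figure D1:**
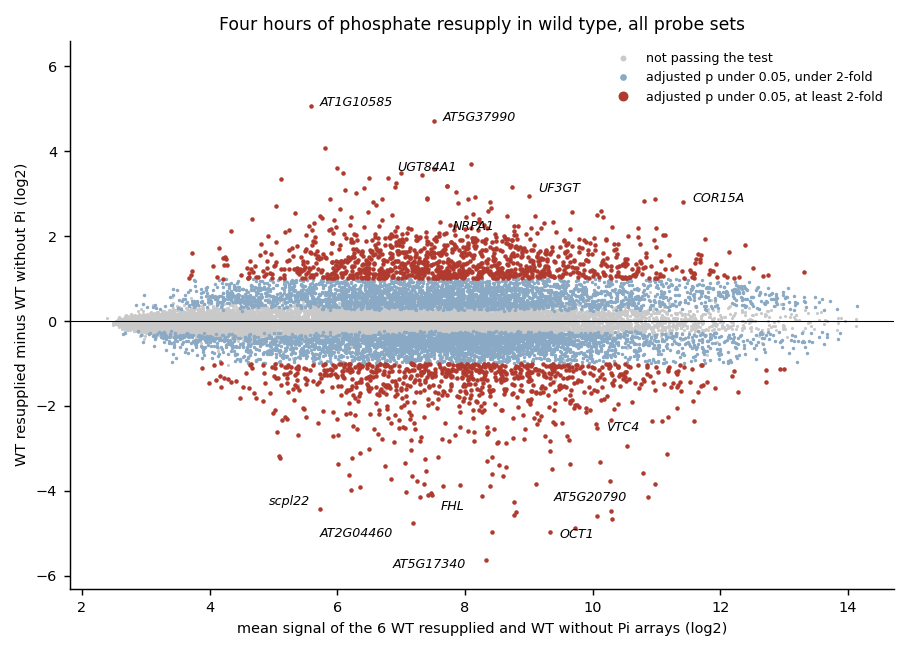
Change of each of the 22746 probe sets (vertical axis, WT resupplied minus WT without Pi, log2) against its mean signal over the 6 arrays (horizontal axis, log2). Red points passed the test with a change of at least 2-fold, blue points passed with a smaller one and grey points did not pass; the falls reach -5.63 at AT5G17340 and the rises 5.05 at AT1G10585.

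Genes of the phosphate response fell by up to 49.7-fold within 4 h. Of the 9 listed genes, 6 fell, each at least 2-fold, 2 rose and 1 was not called. Over all probe sets 19.0% fell and 18.4% rose. The median change of the 9 genes was -2.55, against -0.05 over all probe sets. AT5G17340, a gene known to respond to low Pi, read 6.22, 5.34 and 4.99 on the WT resupplied arrays, against 11.08, 11.18 and 11.18 on the WT without Pi arrays. OCT1, an organic cation and carnitine transporter gene, read 6.88, 6.98 and 6.70 after resupply, against 11.63, 11.96 and 11.89 without Pi. AT2G04460 read 5.13, 4.52 and 4.79, against 9.58, 9.45 and 9.68. In all 3 genes every resupplied array lay below every array without Pi, and the gap was many times the spread within a group. Arrays of the 2 groups did not overlap, in either direction, in 58.0% of all probe sets. The changes were -5.63 ± 0.22 for AT5G17340, -4.98 ± 0.15 for OCT1 and -4.75 ± 0.14 for AT2G04460 (log2, SE, n = 3 arrays per group, limma adjusted p of 1.21e-12 or less). AT5G20790, another gene known to respond to low Pi, fell as well, with 9.01, 8.88 and 8.49 in WT resupplied and 12.96, 13.12 and 12.73 in WT without Pi (-4.15 ± 0.16). SAL2, a phosphatase gene of the family that acts on phosphorylated nucleotides and inositols, changed by -2.55 ± 0.12 and AT5G09570 by -2.05 ± 0.16.

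These genes had not all come to the same place relative to seedlings that were never starved. AT2G04460 averaged 4.81 ± 0.31 in WT resupplied and 4.93 ± 0.19 in WT complete (SD, n = 3 each), a difference of -0.12 ± 0.14 that did not pass (adjusted p = 0.464). AT5G20790 was still 3.64 ± 0.16 above WT complete, AT5G09570 3.36, OCT1 2.3 and AT5G17340 2.0. The starvation changes of the same genes, WT without Pi minus WT complete, were 4.63 for AT2G04460, 7.78 for AT5G20790, 5.41 for AT5G09570, 7.27 for OCT1 and 7.63 for AT5G17340. Starvation changed 48.5% of all probe sets. These comparisons share arrays with the resupply comparison and are given side by side only.

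Other members of the list behaved differently. PAP20, a purple acid phosphatase gene, read 5.66, 5.40 and 5.30 after resupply, against 5.70, 5.77 and 5.75 without Pi, and was not called (-0.28 ± 0.14, adjusted p = 0.113). LPR1, a ferroxidase gene through which the root tip stops growing at low Pi, read 7.02, 7.03 and 7.00 after resupply, against 5.38, 5.55 and 5.61 without Pi. It rose by 1.5 ± 0.15 and lay 1.74 above WT complete, so its level after resupply was above both WT without Pi and WT complete. LPR2, its close relative, rose by 0.58 ± 0.18. The call of LPR2 was lost without WT without Pi replicate 1 (0.55).

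**Figure D2:**
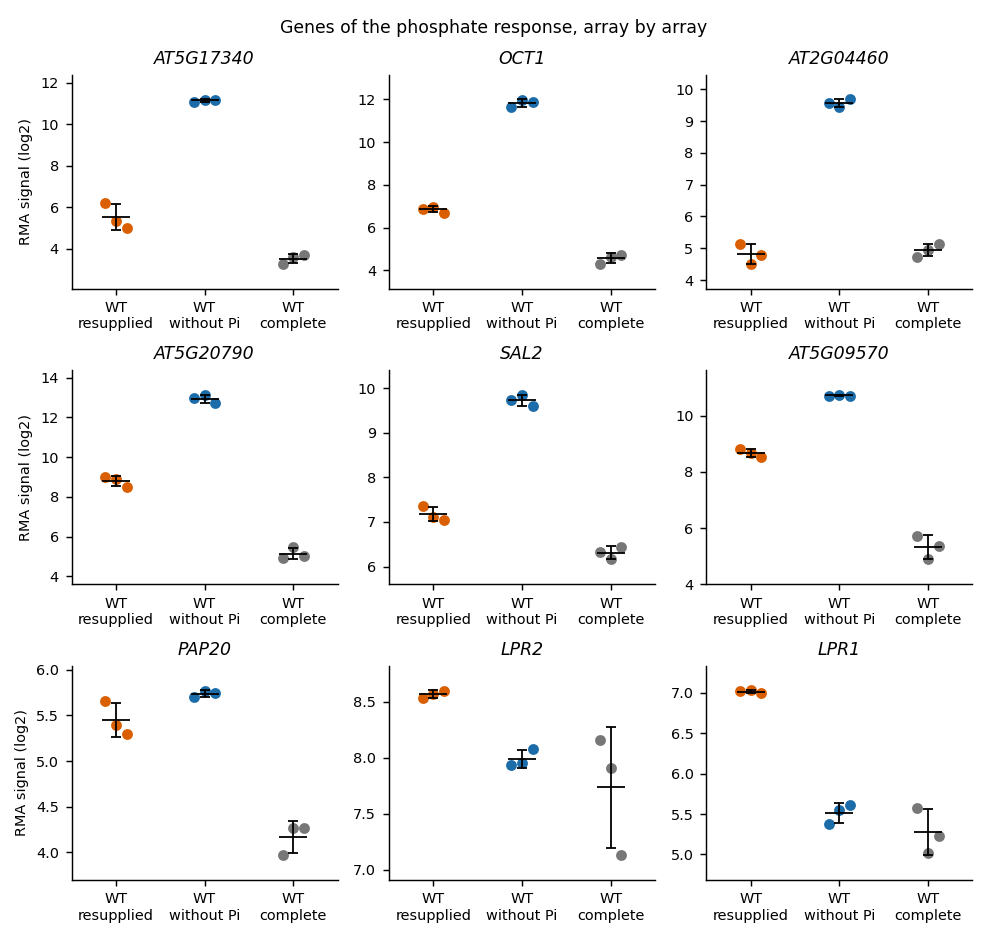
RMA signal (log2, vertical axes, a range of its own per gene) of the 9 phosphate response genes on each array of WT resupplied (orange), WT without Pi (blue) and WT complete (grey); black bars are means with SD. The first 6 genes fall by 2.05 to 5.63 after resupply, PAP20 was not called, and LPR2 and LPR1 rise.

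Regulators at the meeting point of phosphate and nitrate signalling fell too. The HHO genes encode GARP-type repressors that answer to nitrate and are induced by low Pi. HHO2 (AT1G68670) read 8.90, 8.75 and 8.72 in WT resupplied, against 10.32, 10.42 and 10.25 in WT without Pi (-1.54 ± 0.10). HHO1 (AT3G25790) changed by -1.19 ± 0.19 and HHO3 (AT1G25550) by -0.93 ± 0.12, so 3 of 3 fell, where 19.0% of all probe sets fell. The organic cation transporter genes split. OCT4 fell with OCT1, by 1.97 on the log2 scale, whereas OCT5 rose by 1.36 ± 0.17. OCT5 read 7.52, 7.63 and 7.47 in WT resupplied, against 6.10, 6.08 and 6.36 in WT without Pi.

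Across probe sets that carry 1 named gene, the 15 strongest falls ranged from 3.41 to 5.63 in size. Only 3 of the 15 genes carry a name beyond their locus number. Besides OCT1 these were scpl22, a serine carboxypeptidase-like gene, and FHL, which brings phytochrome A into the nucleus. scpl22 read 3.42, 3.58 and 3.55 in WT resupplied, against 7.80, 7.99 and 8.01 in WT without Pi. Its resupplied arrays are in the dim range, so the fall of 21.4-fold is a lower bound. FHL read 5.62, 5.32 and 5.34 after resupply, against 9.45, 9.62 and 9.53 without Pi, and its resupplied mean differed from that of WT complete by 0.00 ± 0.17 (adjusted p = 0.995). AT1G08310, AT4G25160, AT3G43110, AT2G23270, AT1G19200, AT3G07350, AT1G72070, AT3G03790 and AT5G47740 made up the rest, with changes of -4.50, -3.92, -3.89, -3.84, -3.65, -3.60, -3.53, -3.44 and -3.41. Relative to WT complete, 6 of the 15 were higher, 2 lower and 7 not called. In that comparison 54.2% of all probe sets were called, 23.8% higher and 30.4% lower.

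Falls among the other genes with a name were spread over several functions. VTC4, an inositol phosphate phosphatase gene that also serves ascorbate synthesis, read 8.90, 8.85 and 8.68 in WT resupplied, against 11.28, 11.41 and 11.26 in WT without Pi (-2.51 ± 0.12). OSM34, an osmotin gene, changed by -2.36 ± 0.17, and SUFE2, a gene for a protein that activates sulfur transfer, by -2.03 ± 0.18. ALN encodes allantoinase, which opens the purine breakdown product allantoin and frees its nitrogen. Its arrays read 7.12, 7.33 and 7.09 after resupply, against 8.72, 9.01 and 8.78 without Pi, and its starvation change was 0.02 ± 0.14. ALN thus ended 1.63 below WT complete. HIS1-3, a linker histone gene induced by drought, changed by -2.08, BGAL16, a beta-galactosidase gene, by -2.11, and GAT1_2.1, a glutamine amidotransferase gene, by -1.81.

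Of the 15 strongest rises, all 15 ended above WT complete, where 23.8% of all probe sets were called higher. That comparison uses the same WT resupplied arrays by which the 15 were chosen, which tilts it towards higher calls. AT1G10585, a gene for a bHLH transcription factor, read 8.28, 8.17 and 7.89 in WT resupplied, against 3.33, 3.04 and 2.81 in WT without Pi. Its change of 5.05 ± 0.30 is a lower bound, since the arrays without Pi are in the dim range. AT5G37990 read 9.91, 9.96 and 9.74, against 5.05, 5.14 and 5.28 (4.72 ± 0.21). UGT84A1, which encodes an enzyme that joins glucose to hydroxycinnamic acids, rose by 3.36 ± 0.21, with 8.38, 8.45 and 8.62 after resupply and 5.05, 5.18 and 5.13 without Pi. The changes of AT3G26460, AT5G47330, AT2G48080, AT2G22590, AT1G07050, AT2G23910, AT2G15780, AT2G16005 and AT5G47980 were 3.61, 3.58, 3.48, 3.36, 3.34, 3.16, 3.08, 3.02 and 2.89. Those of AT3G26460 and AT1G07050 are lower bounds. The other 3 of the 15, AT5MAT, JRG21 and UF3GT, belong to the pigment and jasmonate groups below. The standard error was at most 0.36 in these 15 genes and the adjusted p at most 6.8e-07.

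RNA polymerase subunit genes rose in 9 of 12 cases, where 18.4% of all probe sets rose. No list of ribosomal protein genes was analysed here. RNA polymerase I makes the large ribosomal RNA precursor, polymerase III makes 5S rRNA and tRNAs, polymerase II makes mRNAs, and polymerases IV and V act in RNA-directed silencing. None of the 12 fell, and their median was 0.77. The largest subunit of polymerase I, NRPA1, read 8.79, 8.49 and 8.80 in WT resupplied, against 6.62, 6.75 and 6.54 in WT without Pi. The second largest, NRPA2, read 9.24, 9.36 and 9.37, against 7.74, 7.74 and 7.43. Both polymerase I genes rose, by 2.06 ± 0.16 and 1.69 ± 0.13. The polymerase III genes NRPC2 and NRPC1 rose by 1.18 ± 0.11 and 0.80 ± 0.16. NRPB12, a small subunit gene, rose by 1.43 ± 0.12 and NRPB7 by 1.0 ± 0.15. The subunit genes NRPB9A, NRPB9B and NRPD7 changed by 0.11, 0.31 and 0.09 and were not called, though NRPB9B passed without WT without Pi replicate 2 (0.39).

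Of 13 genes of rRNA maturation and ribosome assembly 12 rose, 8 of them at least 2-fold, with a median of 1.11. The share of all probe sets that rose was 18.4%. YAO, a nucleolar protein gene needed for rRNA processing, read 8.95, 9.15 and 9.16 in WT resupplied, against 7.29, 7.35 and 7.02 in WT without Pi (1.87 ± 0.14). RBL (REBELOTE, AT3G55510) rose by 1.84 ± 0.20 and IMP4, which helps to cut the pre-rRNA of the small subunit, by 1.46 ± 0.12. The helicase gene RH57 (AT3G09720), the pre-rRNA nuclease gene NOB1 (AT5G41190) and PESCADILLO (AT5G14520), a factor of the large subunit, rose by 1.37, 1.35 and 1.11. RRP41 and RRP41L, genes of the RNA exosome that trims rRNA, rose by 0.94 and 1.06, and DIM1A, an rRNA dimethylase gene, by 0.94. The 1 gene not called was DIM1B (-0.12 ± 0.13), whose product works in mitochondria. RH39, which rose by 1.14, acts on chloroplast rRNA. Relative to WT complete 9 of the 13 were higher and 1, DIM1B, lower, against 23.8% and 30.4% of all probe sets.

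**Figure D3:**
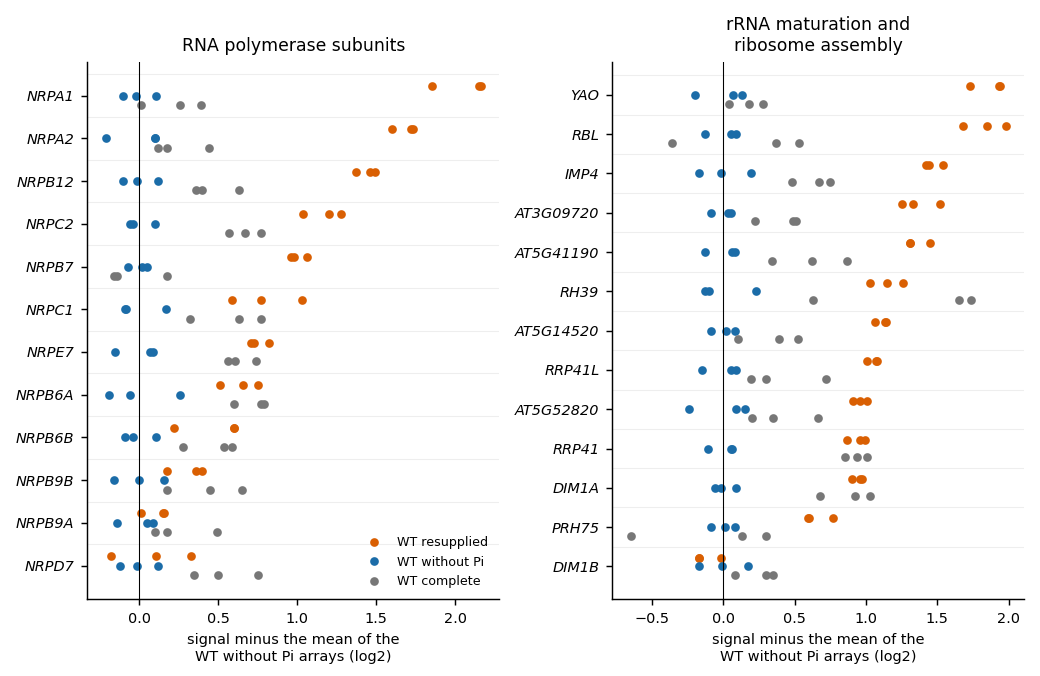
Signal of each array minus the mean of the WT without Pi arrays (horizontal axis, log2) for 12 RNA polymerase subunit genes (left) and 13 genes of rRNA maturation and ribosome assembly (right), with WT resupplied in orange, WT without Pi in blue and WT complete in grey. The resupplied arrays of NRPA1, NRPA2, YAO and RBL lie to the right of all others, while those of NRPD7 and DIM1B overlap the arrays without Pi.

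Genes for tRNA and nucleotide supply moved in the same direction, where 18.4% of all probe sets rose. All 5 tRNA genes rose: the tRNA 3 prime end nuclease genes TRZ3 (1.38 ± 0.15), TRZ4 (0.54) and TRZ1 (0.31), the tRNA methylation gene TRM82 (1.27 ± 0.13) and the alanyl-tRNA synthetase gene ALATS (0.38). The call of TRZ1 was lost without WT resupplied replicate 3 (0.27) and without WT without Pi replicate 2 (0.25) or 3 (0.28). PYRB, which encodes aspartate transcarbamoylase, the committing step of pyrimidine synthesis, read 9.75, 9.58 and 9.85 in WT resupplied, against 8.28, 8.42 and 8.27 in WT without Pi. It rose by 1.40 ± 0.13, and the salvage genes HGPT, UPP and FAC1 rose by 0.85, 0.60 and 0.60, so 4 of 4 rose. PGM (AT1G78050), a phosphoglycerate mutase gene of glycolysis, rose by 1.88 ± 0.14.

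Pentatricopeptide repeat proteins edit, cut and stabilise RNA in mitochondria and chloroplasts. Of their 14 named genes 9 rose and none fell, against 18.4% and 19.0% of all probe sets, with a median of 0.48. OTP81, a chloroplast editing factor gene, read 6.87, 6.63 and 7.16 after resupply, against 5.54, 5.46 and 5.32 without Pi (1.45 ± 0.16). PPR596 and PPR336, both of mitochondria, rose by 1.33 and 1.25, and CRR21 by 1.04. OTP80, OTP85 and OTP86 were in the dim range in both groups, and the rise of OTP85 was lost without WT resupplied replicate 1 (0.33). Among 10 chaperone genes 6 rose, led by the chloroplast chaperonin gene Cpn60beta2 (1.32 ± 0.11), and Fes1B fell (-0.42 ± 0.13). The call of Fes1B was lost without WT resupplied replicate 2 (-0.37) or WT without Pi replicate 1 (-0.35).

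Pigment genes rose together. Anthocyanins are built on a flavonoid core by DFR and then decorated with sugars and acyl groups. Of 8 anthocyanin and flavonol genes 7 rose, each at least 2-fold, with a median of 1.78. The share of all probe sets that rose was 18.4%. AT5MAT, which adds malonate to the sugar, read 8.70, 8.16 and 8.56 in WT resupplied, against 5.42, 5.49 and 5.07 in WT without Pi (3.15 ± 0.20). UF3GT, which adds xylose, read 10.73, 10.22 and 10.50, against 7.14, 7.80 and 7.66 (2.95 ± 0.18). AT4G14090, which adds glucose, rose by 2.33 ± 0.19, with 10.80, 10.29 and 10.53 after resupply against 8.09, 8.36 and 8.20 without Pi. UGT78D2 rose by 2.16, CHIL by 1.40, DFR by 1.23 and UGT78D1 by 1.02. No resupplied array of these 7 genes overlapped an array without Pi. All 1105 rises of at least 2-fold were separated in this way, as were 58.0% of all probe sets in either direction. The gene not called, UGT78D3 (0.18), was in the dim range in both groups. All 7 were above WT complete as well, UF3GT by 4.55 and AT4G14090 by 4.42, where 23.8% of all probe sets were higher. The starvation changes of UF3GT and AT4G14090 were 1.6 and 2.09, and that of AT5MAT, 0.35, did not pass. HYH, a light-response regulator gene related to HY5, read 7.35, 7.32 and 7.32 after resupply, against 4.47, 4.39 and 4.50 without Pi (2.88 ± 0.19).

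The wider family of UDP glycosyltransferases was mixed. Of 48 genes 17 rose, 10 fell and 21 were not called, with a median of -0.03. Over all probe sets 18.4% rose and 19.0% fell. Besides UGT84A1 and the pigment genes, UGT76E12 and UGT73B1 rose by 1.65 and 1.51. UGT85A4 fell by 1.24 and the monolignol glucosyltransferase genes UGT72E2 and UGT72E3 by 0.84 and 0.72 on the log2 scale.

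Of 9 jasmonate genes, 4 rose and 3 fell, against 18.4% and 19.0% of all probe sets. The list holds AT1G10585, described above, and the thionin gene THI2.1, whose rise of 1.0 ± 0.25 came from the dim range. JRG21, an oxygenase gene that jasmonate induces, read 9.51, 9.56 and 9.09 in WT resupplied, against 6.38, 6.62 and 6.02 in WT without Pi (3.05 ± 0.31). AT2G38240, a jasmonate-related oxygenase gene, rose by 2.79 ± 0.29, with 9.82, 10.10 and 9.46 after resupply against 7.26, 7.37 and 6.36 without Pi. Against these, OPCL1, a CoA ligase gene of jasmonate synthesis, read 9.62, 9.08 and 9.32 after resupply, against 10.94, 10.74 and 11.61 without Pi (-1.76 ± 0.20). ORA47, a factor gene that drives jasmonate synthesis, changed by -0.68 ± 0.14 and the thionin gene THI2.2 by -0.64. The defensin genes PDF1.2 and PDF1.2b changed by 0.27 and 0.04 and were not called.

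Cold-regulated genes were higher after resupply. COR15A, whose product protects chloroplast membranes on freezing, read 12.92, 12.66 and 12.88 in WT resupplied, against 9.92, 10.10 and 10.04 in WT without Pi. Its rise of 2.80 ± 0.27 came on top of a starvation change of 4.07, and it stood 6.87 above WT complete. COR27 rose by 1.52 ± 0.18, the dehydrin gene LTI30 by 1.03 ± 0.18 and COR15B by 0.91 ± 0.23. COR47 changed by 0.30 and was not called. The clock gene GI, which varies with time of day, changed by 0.14 ± 0.12 (adjusted p = 0.422), with 9.27, 9.30 and 9.28 against 8.97, 9.28 and 9.17.

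Genes of self-digestion and vacuolar sorting fell. Autophagy wraps cell contents in membranes coated with ATG8 proteins. Of 10 named genes, 9 of the ATG8 family and ATG3, 7 fell and 1 rose, with a median of -0.48. Over all probe sets 19.0% fell and 18.4% rose. ATG8F read 9.30, 9.32 and 9.16 in WT resupplied, against 11.11, 11.23 and 10.96 in WT without Pi (-1.84 ± 0.13). Its starvation change did not pass (0.11 ± 0.13, adjusted p = 0.515) and ended 1.73 below WT complete. ATG8H and ATG8E changed by -1.25 and -1.18. ATG8B went the other way, with 8.64, 8.46 and 8.41 after resupply and 7.35, 7.51 and 7.57 without Pi (1.03 ± 0.18). ESCRT genes, which sort membrane proteins for the vacuole, fell in 6 of 11 cases and rose in none, by at most 0.57 on the log2 scale. All those falls were smaller than the spike-in difference of -0.71. The fall of VPS24.1 (-0.55) was lost without WT resupplied replicate 2 or WT without Pi replicate 1.

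Genes of protein quality control in the endoplasmic reticulum fell in 8 of 13 cases and rose in none, with a median of -0.36. Among all probe sets 19.0% fell and 18.4% rose. The membrane-bound stress factor genes BZIP28 and BZIP60 led with -1.07 ± 0.12 and -0.93 ± 0.15. BZIP28 read 8.36, 8.49 and 8.34 in WT resupplied, against 9.34, 9.46 and 9.59 in WT without Pi. The degradation genes DER2.1, UBC32 and OS9 changed by -0.79, -0.63 and -0.58. The calreticulin genes ATCRT1 and CRT1b were not called (-0.29 and -0.23).

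Calmodulin-like (CML) and U-box ubiquitin ligase (PUB) genes answer quickly to stress and calcium. Of 16 genes 8 fell and none rose in WT, against 19.0% and 18.4% of all probe sets. Without WT resupplied replicate 2, 5 fell. With 5 of the alternative settings 1 member rose. PUB24 read 5.84, 5.92 and 5.77 in WT resupplied, against 7.39, 7.23 and 7.88 in WT without Pi (-1.66 ± 0.19). CML37 changed by -1.49 ± 0.18 and PUB23 by -0.90 ± 0.16. CML38 changed by -0.64 ± 0.18, a call lost without WT resupplied replicate 2 (-0.51).

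Low-oxygen genes, which plants switch on when submerged, fell in 8 of 11 cases, 7 of them at least 2-fold, with a median of -1.55. AT4G27450 read 6.57, 6.92 and 7.05 in WT resupplied, against 10.31, 10.13 and 10.24 in WT without Pi and 12.60 on average in WT complete. Its resupply change was -3.38 ± 0.37 and its starvation change -2.38. AT1G19530, AT4G33560 and AT2G17850 changed by -2.29, -2.16 and -2.06, and HRA1 (AT3G10040), a regulator that dampens the low-oxygen response, by -1.22. In 10 of the 11 genes the resupplied level was below WT complete. Of all probe sets 19.0% fell with resupply and 30.4% were below WT complete. In the low-oxygen list 2 genes were in the dim range in both groups. AT4G39675 rose by 2.53 ± 0.53, with 6.18, 6.20 and 7.42 after resupply against 4.2, 3.89 and 4.11 without Pi, in the dim range. PDC2, a pyruvate decarboxylase gene of ethanol fermentation, changed by 0.22 and was not called.

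Genes of auxin inactivation and of the cell wall changed in part. GH3 enzymes join auxin to amino acids. Of 5 GH3 genes 4 fell, where 19.0% of all probe sets fell. WES1 (GH3.5) changed by -1.48 ± 0.16 and GH3.3 by -1.41 ± 0.13. GH3.3 read 6.09, 6.34 and 6.01 in WT resupplied, against 7.72, 7.57 and 7.38 in WT without Pi. The fall of GH3.17 (-0.52) was lost without WT resupplied replicate 3 or WT without Pi replicate 2.

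Expansins loosen walls. Of 18 genes 6 fell and 3 rose, against 19.0% and 18.4% of all probe sets. EXPA16 fell most (-2.06 ± 0.13), with 5.84, 5.83 and 5.57 after resupply against 7.73, 7.95 and 7.74 without Pi. EXLA1, EXLA2 and EXLB1 changed by -1.32, -1.19 and -1.08, while EXPA15 rose by 0.77. XTH enzymes cut and rejoin xyloglucan, and their 9 genes split with 3 up and 4 down. XTH32 rose by 2.05 ± 0.20 and XTH20 by 1.57, and XTH19 and XTH26 changed by -1.29 and -1.25. TBL26, of the family that acetylates wall polymers, rose by 1.96 ± 0.33, and 17 of 22 TBL genes were not called.

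Of 15 SWEET sugar transporter genes 3 rose and 1 fell, where 18.4% of all probe sets rose and 19.0% fell. SWEET2, a vacuolar sugar transporter gene of roots, read 7.82, 7.79 and 7.77 in WT resupplied, against 6.45, 6.51 and 6.64 in WT without Pi (1.26 ± 0.12). Of 12 nitrate and peptide transporter genes 6 rose and 1 fell, led by NPF3.1 (AT1G68570, 1.23 ± 0.20). No fall was called in that list without WT resupplied replicate 1 or 3 or without WT without Pi replicate 1 or 2. The glutathione transferase genes GSTU25 and GSTU22 rose by 1.57 and 1.31, with 4 of 13 falling by at most 0.70 on the log2 scale. Of 29 serine carboxypeptidase-like genes 21 were not called, and scpl31 rose by 2.15 ± 0.23. The iron-deficiency factor genes ILR3, bHLH121 and bHLH115 changed by -0.76, -0.65 and -0.61, and bHLH34 rose by 0.69.

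Photosynthesis genes were lower. Of 8 nuclear genes for photosystem proteins 7 fell, with a median of -0.49, and all 8 were below WT complete. The shares of all probe sets were 19.0% for falls and 30.4% for levels below WT complete. LHCB4.2, an antenna protein gene, read 12.39, 12.40 and 12.32 in WT resupplied, against 13.56, 13.49 and 13.48 in WT without Pi (-1.14 ± 0.10). PSAN and LHCB4.3 changed by -0.74 and -0.68. Of these 7 falls 5 were smaller than the spike-in difference. NdhL and NdhS, genes for subunits of the thylakoid NDH complex, changed by -1.19 and -0.76.

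Of 69 chloroplast-encoded genes 10 fell and none rose, with a median of -0.40 and a range of -1.92 to 0.55. Over all probe sets 19.0% were called lower, a larger share than that of the chloroplast genes. The fit without the 3 arrays of other groups that had low spike-in signal called 35 falls and 3 rises, and 6 falls were called without WT resupplied replicate 2 and 6 without WT without Pi replicate 1. The ribosomal protein gene rpl20 read 6.82, 6.26 and 6.49 in WT resupplied, against 8.79, 8.32 and 8.23 in WT without Pi (-1.92 ± 0.51). Of 16 mitochondrion-encoded genes 4 fell, against the same 19.0% of all probe sets. Organelle transcripts mostly lack the long poly-A tail used for labelling, so these are changes of array signal.

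**Figure D4:**
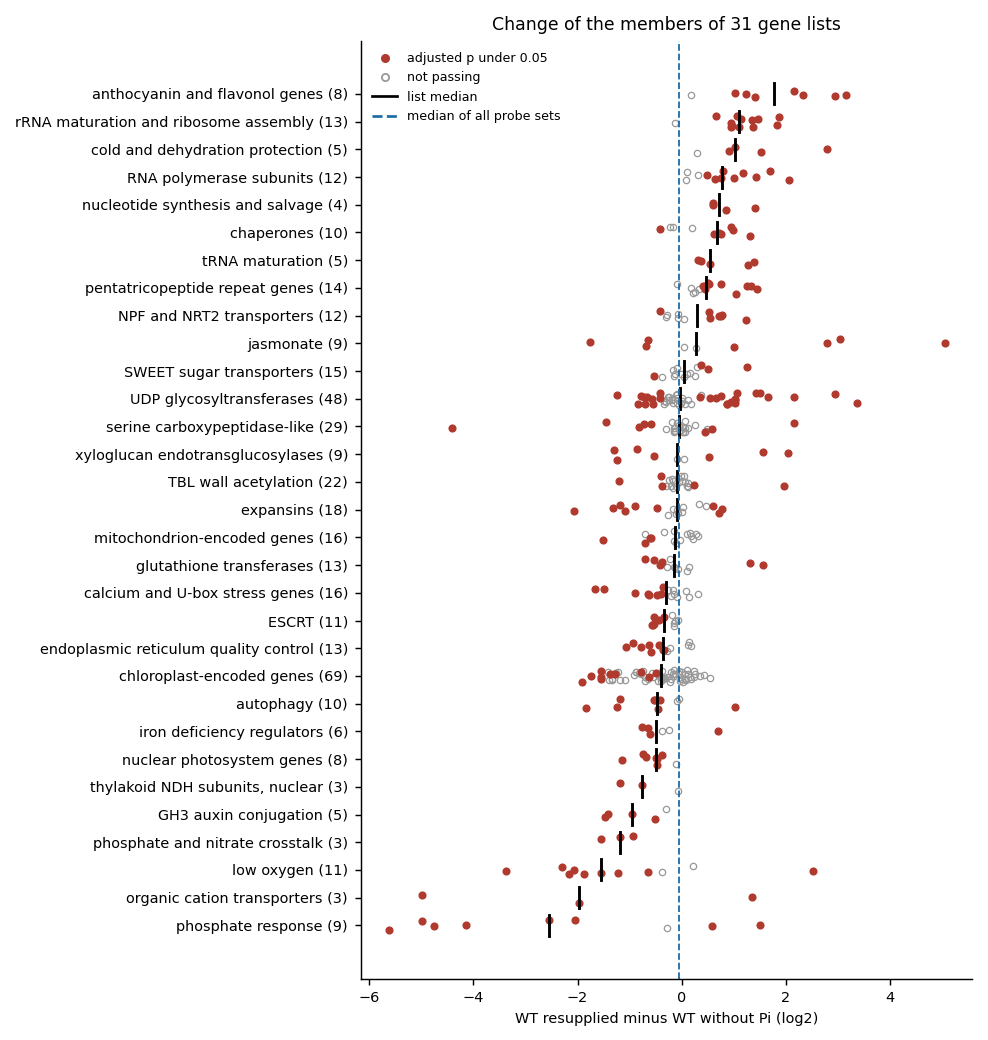
Change of each member (horizontal axis, WT resupplied minus WT without Pi, log2) of the 31 gene lists with at least 3 members, ordered by list median; the number of members stands in brackets. Filled points passed the test, open points did not, black bars are list medians and the dashed line is the median of all probe sets, -0.05. The pigment list has the highest median, 1.78, and the phosphate list the lowest, -2.55.

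The spx1 spx2 double mutant was resupplied in the same way, which asks whether the response depends on these SPX genes. Its resupply comparison shares no array with that of WT. The mean spike-in signal moved by 0.67 in the mutant (resupplied minus without Pi) and by -0.71 in WT. The mutant value rests on 1 low array, replicate 1 without Pi (4.93). The other mutant arrays without Pi read 7.87 and 7.42, against 7.31 to 7.55 on the mutant resupplied arrays. The part of these shifts in the genotype differences was not tested. In the mutant 9741 probe sets differed (42.8%), 5350 up (23.5%) and 4391 down (19.3%). Across the 22746 probe sets the changes of the mutant and of WT had a correlation of 0.754, given as a description. Rises called in both numbered 3274, which is 61.2% of the mutant's and 78.1% of WT's rises. Falls called in both numbered 2651, which is 60.4% of the mutant's and 61.3% of WT's falls. The test of the difference itself, mutant response minus WT response, passed for 2638 probe sets (11.6%), 1400 positive (6.15%) and 1238 negative (5.44%). That count was 1692 or 1709 without WT resupplied replicate 1 or 3, 1715 or 1751 without mutant resupplied replicate 2 or 3, and 5843 with array weights. Replicate 1 of the mutant without Pi had low spike-in signal (4.93, against 7.42 to 7.87 in its group), and 2724 probe sets passed without it.

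Of the 9 phosphate genes, 6 responded differently in the mutant, all 6 with a smaller fall. AT5G20790 changed by -0.37 ± 0.16 in the mutant, which did not pass (adjusted p = 0.0752), and by -4.15 in WT. The difference was 3.78 ± 0.23. AT2G04460 changed by -0.75 in the mutant and -4.75 in WT (difference 4.0 ± 0.19), AT5G17340 by -2.31 and -5.63 (3.33 ± 0.32) and OCT1 by -2.52 and -4.98 (2.46 ± 0.21). Of the 812 falls of at least 2-fold in WT, 404 differed between the genotypes (49.8%), 262 with a higher mutant than WT response. Of the 1105 rises of that size, 228 differed (20.6%), 187 with a lower mutant than WT response. Choosing genes by a large WT change tilts these counts towards a smaller response in the mutant.

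Other groups differed in other ways. CML38 fell by 4.49 on the log2 scale in the mutant, against a change of -0.64 in WT, and CML37 changed by -4.54 and -1.49. Of the 16 CML and PUB genes 6 differed, all 6 with a lower mutant than WT response. CML38, EXLA3, AT1G19210 (an AP2/ERF factor gene), AT3G02840 and AT4G29780 had the 5 most negative genotype differences among probe sets with 1 named gene. They were named for that, so their larger fall in the mutant follows from the choice. EXLA3, AT1G19210, AT3G02840 and AT4G29780 changed by -4.46, -4.82, -4.67 and -4.47 in the mutant and -0.89, -1.02, -1.16 and -1.13 in WT. Of the 5 cold genes 4 differed, all 4 with a lower mutant than WT response. LTI30 changed by 0.02 in the mutant and 1.03 in WT (difference -1.01 ± 0.26). In the mutant COR15A rose (2.24), COR47 fell (-0.66), and COR27 and COR15B changed by 0.35 and -0.19 and were not called. For the 8 pigment genes the difference passed in none, and ranged from -0.69 to 0.14. AT5MAT had the largest, -0.69 ± 0.28 (adjusted p = 0.125). NRPA1 rose by 0.79 in the mutant and 2.06 in WT (difference -1.27 ± 0.22), and of 13 assembly genes 1, RBL, differed. The low-oxygen genes gave no difference that passed, with medians of -1.55 in both genotypes.

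**Figure D5:**
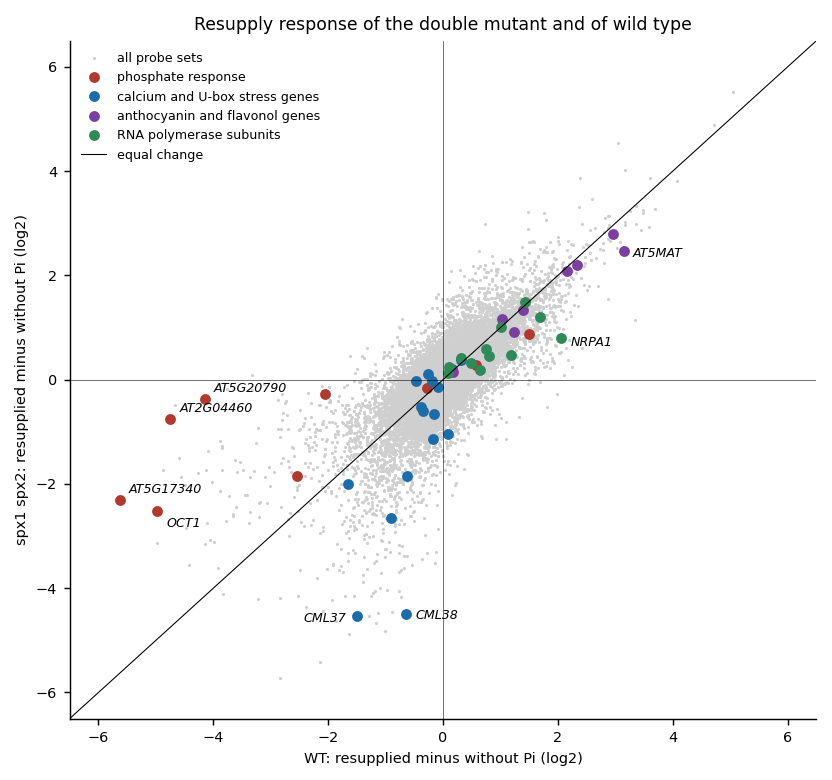
Resupply change in the spx1 spx2 mutant (vertical axis, log2) against that in WT (horizontal axis, log2) for 22746 probe sets (grey) and the members of 4 lists; the line marks equal change. The phosphate genes AT5G20790, AT2G04460, AT5G17340 and OCT1 lie above the line, CML37 and CML38 below it, and the pigment genes near it.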

How the data were processed

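RNA of whole seedlings was hybridised to single-colour Affymetrix ATH1 arrays. The authors deposited log2 signals per probe set, made with RMA (background correction, quantile normalization and summary over probes) per the submitters' processing notes, whose version is not given in the sources used here. Quantile normalization assumes that most genes keep their level. The values were used as deposited. Of 22810 probe sets, 64 controls were left out of the tests, 13513 carried 1 named gene, 503 several and 8730 none, by the platform's annotation updated through a RefSeq gene table.

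All 18 arrays in 6 groups were fitted with limma 3.58.1 in R 4.3.3 (lmFit and eBayes), without a replicate block, and p-values were adjusted over 22746 probe sets (Benjamini-Hochberg, threshold 0.05). Error values after ± are standard errors of changes or, where marked, SDs. The number of arrays limits the precision: on simulated data for the WT resupply comparison with 200 of 22746 probe sets changed, 29% of changes of 0.5, 92.5% of changes of 1 and 100% of changes of 2 (log2) were recovered, with 4, 13 and 9 false calls. Far fewer probe sets changed there than the 37.4% called in the data, and the adjustment depends on that share. These rates therefore hold for the simulated setting only.

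The rule for named genes took the 15 largest rises and 15 largest falls with non-overlapping arrays and 1 named gene, up to 4 leading members per list, and the 5 largest genotype differences in each direction. The comparison, members and lists were chosen with earlier results of these data known. All 34 lists used, the naming of the largest rises and falls among genes with a name other than a locus tag, and 43 further list members were chosen after their values were seen. Alternatives were the 6 arrays alone, the block, centring, a filter on dim probe sets, an intensity trend, array weights, leaving out 3 arrays with low spike-in signal, and leaving out each replicate. Promoter motifs were not analysed here, and loss of SPX1 and SPX2 in the mutant was not checked.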

Additional observations from a re-analysis of the deposited data

Results flagged for a closer look

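Of 203 named genes, 56 responded to resupply differently in the spx1 spx2 mutant and in WT by the interaction test in limma (11.6% of all probe sets passed it). Some of the 203, such as CML38 and AT2G04460, were named for having the largest genotype differences, so their passing follows from the choice. A further 43 were named after their values were seen. The count of 56 therefore cannot be weighed against the 11.6%. The values below are the mutant response minus the WT response on the log2 scale, positive for 34 genes and negative for 22. Groups of 3 arrays were not tested for single outlying arrays, and genes chosen for a large WT change tilt towards a smaller mutant response.

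Among the phosphate and transport genes the difference was 4.0 for AT2G04460, 3.78 for AT5G20790, 3.33 for AT5G17340, 2.46 for OCT1, 1.77 for AT5G09570, 1.54 for OCT4, 0.89 for OCT5, 0.72 for HHO2 (AT1G68670), 0.71 for SAL2 and 1.27 for AT3G21670, a nitrate transporter family gene. Among the other largest falls it was 2.72 for AT3G43110, 2.49 for AT1G08310, 1.95 for AT1G72070, 1.36 for FHL, 1.22 for AT3G03790, 1.2 for AT5G47740, 1.16 for AT3G07350, 1.03 for AT1G19200 and 0.87 for scpl22. It was 1.54 for VTC4, 1.17 for ALN and 1.12 for SUFE2.

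Stress genes gave -3.84 for CML38, -3.8 for AT1G19210, -3.51 for AT3G02840, -3.34 for AT4G29780, -3.05 for CML37, -2.93 for ORA47 and -1.76 for PUB23. The cold genes gave -1.18 for COR27, -1.1 for COR15B, -1.01 for LTI30 and -0.96 for COR47. The jasmonate genes gave -1.01 for OPCL1 and 1.5 for JRG21. Wall genes were split, with -3.58 for EXLA3, -1.5 for EXLA1 and -0.66 for EXLA2, against 1.45 for EXPA7, 1.35 for XTH26, 1.26 for EXPA18 and 0.73 for EXPA16.

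Among the polymerase and assembly genes the difference was -1.27 for NRPA1, -1.03 for RBL (AT3G55510) and -0.71 for NRPC2. It was -0.92 for the chaperonin gene Cpn60beta4, -1.11 for VPS2.1 and -0.47 for VPS2.2 of the ESCRT list, 0.86 for ATG8F and 0.62 for DER2.1. The remaining values were -2.2 for AT1G07050, 0.56 for LHCB4.2, 0.95 for the mitochondrial gene cox1, 0.96 for GH3.3, 1.0 for UGT72E3 and 1.23 for UGT72E2.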

How the results depend on the processing

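The count of 8517 probe sets for WT resupply ranged from 8257 to 11630 over 7 alternatives (11319 with the 6 arrays alone, 11630 with array weights) and from 7104 to 7532 without single arrays. With each array centred, 46.4% of calls were rises (49.2% otherwise) and the median change was -0.08. The genotype difference passed for 5843 probe sets with array weights, against 2638, and for 1692 to 2886 without single arrays. Of 2634 recomputed values of 203 genes, 2574 kept their direction and side of the threshold, 39 no longer passed, 18 newly passed and 3 reversed, none of them called: NRPD7 (-0.03 to 0.22 without single arrays, below 0 without WT resupplied replicate 3) and PDF1.2b (-0.03 to 0.1, below 0 without WT resupplied replicate 2 or WT without Pi replicate 3). Of 884 list counts, 49 moved by over 1.5 times. The chloroplast-encoded falls numbered 37 with the 6 arrays alone and 36 with array weights, against 10. The cause of these shifts was not tested.

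Deviations of same-numbered WT arrays correlated at 0.0457, 0.0686 and -0.202, and those of differently numbered arrays at -0.234 to 0.181. With 3 arrays per group, these values cannot decide whether the numbers pair the samples. With the replicate number as a block, 8257 probe sets passed for WT resupply, 9517 for the mutant and 2338 for the genotype difference. The promoter motif search was not run. Signals under 4.397 give bounds only.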
